A study of Mus musculus with 2 samples.

Results

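The 10 genes tied to monocytes, or to the itaconate response of activated macrophages, that are described here on arrays of sorted Langerhans cells were Acod1, Cd14, Ifitm3, Ifitm6, Plac8, Msrb1, Mgst1, F13a1, Fn1 and Thbs1. They were chosen by name with earlier readings of the same arrays known, so the values below describe the genes and test nothing. Each of the 10 had 1 probe set carrying its symbol alone, among 19937 genes named in this way. The cells came from Il34+/LacZ mice, which keep 1 working copy of Il34, and from Il34LacZ/LacZ mice, which carry the LacZ allele in both copies. Both groups therefore carry LacZ, and both, aged 8 to 12 weeks, were exposed to UV for 30 min. Cells positive for Langerin and Epcam were sorted 21 days later, and 2 ng of total RNA was labelled for each array. Each genotype has 1 array (n = 1), and the labels do not say how many mice gave the RNA, so no difference has a replicate check, a test or a p-value. The comparison asks how Langerhans cells present after ultraviolet exposure differ where IL-34 is lacking.

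Langerhans cells are the antigen-presenting cells of the epidermis, and IL-34, made mainly by keratinocytes there, signals through the CSF1 receptor that they carry. After strong ultraviolet exposure, blood monocytes are known to enter the epidermis and to give rise to cells of Langerhans type, which is why genes of monocytes are of interest in such a sort. Several of these genes serve innate defence. Acod1 encodes the mitochondrial enzyme that turns cis-aconitate, an intermediate of the citrate cycle, into itaconate, and is induced in macrophages by bacterial products and interferons. Cd14 hands lipopolysaccharide to its receptor, Ifitm3 blocks the entry of viruses from endosomes, and F13a1, Fn1 and Thbs1 act in clots and extracellular matrix.

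A level is a processed intensity on a linear scale, and a difference is log2(intensity + 16) in Il34LacZ/LacZ minus that in Il34+/LacZ. The floor is the median of all probe sets on both arrays, an intensity of 48.7, and 12843 genes reached it on at least 1 array. Differences depended on level: dim genes read slightly higher in Il34LacZ/LacZ and most others lower. Each member was therefore also set against the 500 genes nearest to it in mean level, called genes of its level. The only error the files hold is the spread between different probe sets of a gene, an SD of 0.63 in log2 units (614 genes), or 1.55-fold. It covers probes and isoforms, not animals or sorts, and intensities of different probe sets are not compared with each other.

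Promoters were in the sequence table for 7 members, and 4 are shown: those of Acod1 and Msrb1, the members furthest apart in opposite directions, and those of the chromosomal neighbours Ifitm3 and Ifitm6, of which only the first was read above the floor. Each line gives the 250 bases before the RefSeq start (build GRCm38.p6), 5′ to 3′ on the gene's strand. Capitals mark matches on either strand to 8 motifs: TATAAA, the PU.1 core GAGGAA, the GC box GGGCGG, the AP-1 motif TGANTCA, the interferon-stimulated response element (GAAA, any 2 bases, GAAA), the STAT motif TTCNNNGAA, the C/EBP motif TTGCNNAA and the antioxidant response element TGACNNNGC.
Acod1 (chr14:103046762-103047011, plus strand): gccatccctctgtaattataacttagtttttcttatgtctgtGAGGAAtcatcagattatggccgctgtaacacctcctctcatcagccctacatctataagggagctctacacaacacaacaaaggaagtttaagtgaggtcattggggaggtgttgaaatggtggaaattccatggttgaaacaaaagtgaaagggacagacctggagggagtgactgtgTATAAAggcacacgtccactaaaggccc
Msrb1 (chr17:24736343-24736592, plus strand): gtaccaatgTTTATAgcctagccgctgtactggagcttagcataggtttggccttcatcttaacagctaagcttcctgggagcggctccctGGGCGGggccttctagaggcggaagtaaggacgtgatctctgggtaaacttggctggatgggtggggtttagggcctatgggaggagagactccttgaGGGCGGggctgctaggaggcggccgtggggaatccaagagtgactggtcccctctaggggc
Ifitm3 (chr7:141010745-141010994, minus strand): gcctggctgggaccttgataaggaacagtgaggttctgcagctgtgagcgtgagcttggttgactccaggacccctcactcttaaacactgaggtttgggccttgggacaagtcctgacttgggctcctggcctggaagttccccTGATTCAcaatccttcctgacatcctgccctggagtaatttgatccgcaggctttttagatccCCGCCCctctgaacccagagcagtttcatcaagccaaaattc
Ifitm6 (chr7:141016893-141017142, minus strand): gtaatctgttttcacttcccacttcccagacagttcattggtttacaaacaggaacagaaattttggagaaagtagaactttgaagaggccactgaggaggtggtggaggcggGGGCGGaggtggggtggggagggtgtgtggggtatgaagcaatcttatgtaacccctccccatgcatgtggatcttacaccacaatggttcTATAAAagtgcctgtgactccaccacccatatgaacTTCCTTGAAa
Acod1 had a TATAAA starting 28 bases before its start, a motif in this stretch of 12.4% of 32851 promoters, and a GAGGAA at 208 bases, found in 23.3%. Msrb1 had GGGCGG at 159 and 61 bases before its start, a motif found in 32.7%, with another match that runs over the start. The neighbours shared GGGCGG, at 42 bases before the start of Ifitm3 on the opposite strand and at 137 bases before that of Ifitm6, and differed in other matches. Ifitm6 had TATAAA at 46 bases and TTCNNNGAA at 10 bases before its start, the latter in 7.02% of promoters. Ifitm3 had TGANTCA at 105 bases, found in 6.75%, and no TATAAA in this window. Ifitm3 was the only 1 of the 7 members with the interferon-stimulated response element in its promoter, just past its start, where 2 matches begin at bases 3 and 20 of the transcript. This motif lay within 250 bases before to 50 after the start in 3.44% of promoters. The 30 bases that hold both matches, in capitals, are shown because the motif is that of interferon-inducible genes.
Ifitm3 (chr7:141010714-141010743, minus strand): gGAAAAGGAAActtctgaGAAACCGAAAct
A TTCNNNGAA match overlaps the second of them. These matches are letters in a sequence and show no binding.

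Of the 8 members that reached the floor, 3 read at least 1.5-fold higher in Il34LacZ/LacZ (Acod1, Ifitm3 and Thbs1) and 2 at least 1.5-fold lower (Msrb1 and Plac8). Among all 12843 genes at the floor, 15.9% were that much higher and 29.8% that much lower. Relative to genes of their level, 4 members were at least 1.5-fold higher, Cd14 being the added one, and only Msrb1 was lower, against 14.1% and 18.0% of all genes. Because the members were chosen with these values known, nothing is read from the counts. The same shares of all genes apply to the counts of the lists below. The members did not move as one group: Acod1 and Msrb1 lay near opposite ends of the distribution, and F13a1 and Fn1 in its middle. Ifitm6 and Mgst1 were under the floor on both arrays.

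**Figure D1:**
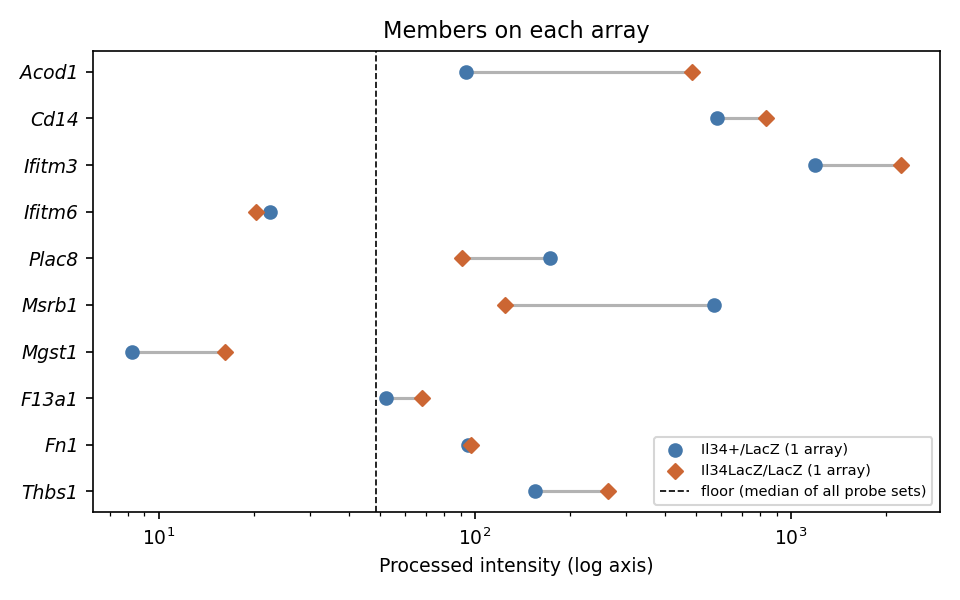
Processed intensity (log axis) of the 10 members on the Il34+/LacZ array (circles) and the Il34LacZ/LacZ array (diamonds), 1 array each, with the floor of 48.7 as a dashed line. Acod1 (94.0 and 484.7) and Msrb1 (571.4 and 124.3) have the widest gaps in opposite directions, and Ifitm6 and Mgst1 lie left of the floor.

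**Figure D2:**
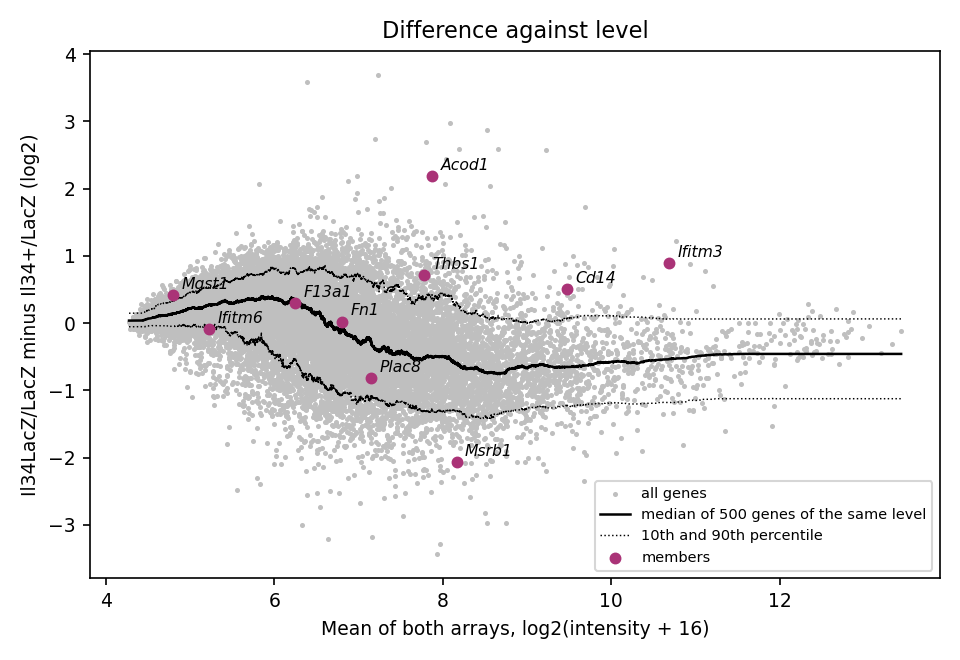
Difference between the arrays (log2, y axis) against mean level (log2, x axis) for 19937 genes in grey, with the median, 10th and 90th percentile of the 500 genes nearest in level as lines and the members as labelled points. Acod1 at 2.19 lies above nearly all genes of its level, Msrb1 at -2.07 below nearly all, and Fn1 at 0.02 close to the median line.

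Acod1 was the member furthest above genes of its level. The Il34+/LacZ array gave 94.0 and the Il34LacZ/LacZ array 484.7, a difference of 2.19 or 4.55-fold, over 3 times the probe set SD. Genes of its level had a median of -0.50, with 10th and 90th percentiles of -1.31 and 0.39, and 99.8% of them lay below Acod1. It had rank 11 from the highest of the 12843 genes.

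Enzymes around the substrate of Acod1 read lower in the same sample. The list of itaconate and citrate genes held 23, of which 22 had a probe set and 19 reached the floor. Of the 19, 13 were lower in Il34LacZ/LacZ by 1.5-fold or more and 0 higher, where 29.8% and 15.9% of all genes were. Their median difference was -0.94, against -0.16 over all genes at the floor. Relative to genes of their level it was -0.32, and 5 were lower and 0 higher, against 18.0% and 14.1% of all genes. The list also holds regulators and induced genes. Its 11 measured aconitase, citrate synthase, isocitrate and succinate dehydrogenase and carrier genes had 10 lower and 0 higher, with a median of -1.05. Relative to their level 5 of the 11 were lower and 0 higher (median -0.49). Cs, citrate synthase, read 683.3 and 301.1, 2.21-fold lower. Idh2, the mitochondrial isocitrate dehydrogenase, read 505.2 and 172.6, 2.76-fold lower, and Idh3a, a subunit of the NAD-dependent one, 155.7 and 51.3, 2.55-fold lower. Relative to genes of their level, Idh2 differed by -0.79 and Idh3a by -1.27, both past the probe set SD, while Cs at -0.49 was within it.

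Succinate dehydrogenase, the enzyme of the cycle that itaconate inhibits, was less far from its level. Sdha read 481.4 and 216.1, Sdhb 328.6 and 255.1, Sdhc 810.8 and 470.2 and Sdhd 647.0 and 323.6. All 4 subunits read lower as deposited, but relative to genes of their level they ranged from -0.43 for Sdha to 0.30 for Sdhb, within the probe set SD. Slc25a11, the mitochondrial oxoglutarate carrier, read 566.8 and 174.1 and differed by -0.95 relative to its level.

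Bacterial products also induce other genes together with Acod1 in macrophages; of these Il1b lay near zero difference, and Nos2 and Il6 were too dim to compare. Il1b, which encodes interleukin-1 beta, read 1773.6 and 1795.2, a difference of 0.02, or 0.54 relative to its level. Nos2, the inducible nitric oxide synthase, read 32.4 and 43.7, and Il6 read 10.5 and 31.1, so both were under the floor on each array. Irf1, an interferon-induced factor, read 291.8 and 187.7, a difference of -0.60 that was -0.10 relative to its level. Of genes tied to the response to itaconate, Nfe2l2, which encodes NRF2, read 784.5 and 555.5 (0.17 relative to its level). The NRF2 target Hmox1 read 582.3 and 528.9 (0.48), and Nqo1 was under the floor on both arrays (20.2 and 22.7). Among the glutathione genes treated below, Gclm stood at -1.66 and Gclc at -0.40 relative to their level, and their tie to NRF2 was not tested. Atf3, a stress-induced factor, read 5919.9 and 3083.6, or -0.48 relative to its level.

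Cd14 read higher in Il34LacZ/LacZ by less than the probe set SD as deposited, and by more than it relative to its level. It read 582.5 and 833.7, a difference of 0.51 or 1.42-fold. Genes of its level had a median of -0.65 and a 90th percentile of 0.06, and 97.0% of them lay below Cd14. Relative to that median it stood 1.16 higher.

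The partners of Cd14 went in different directions. Of 12 listed genes of the lipopolysaccharide receptor and its adaptors, 11 had a probe set and 10 reached the floor. Of the 10, 2 stood 1.5-fold or more higher and 2 lower, where 15.9% and 29.8% of all genes at the floor did. Relative to genes of their level 3 stood higher and 2 lower, where 14.1% and 18.0% of all genes did. Their median as deposited was -0.15, close to the -0.16 of all genes. Tlr4, the signalling receptor, read 39.1 and 24.0, under the floor on both arrays, and Ly96, its partner MD-2, read 51.3 and 31.3. Neither part of the receptor complex that CD14 serves was thus clearly above the floor. Tlr2, which also uses CD14, read 290.9 and 472.4, 1.59-fold higher and 1.41 above its level. Tirap, an adaptor of both receptors, read 72.8 and 187.8, 2.29-fold higher, whereas Ticam1, the adaptor TRIF, read 120.2 and 51.7, 2.01-fold lower. Cd180, a related receptor best known on B cells, read 657.7 and 317.7, but at -0.36 relative to its level it was within the probe set SD.

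Ifitm3 was well above the floor in both samples. Its intensity was 1193.6 for Il34+/LacZ and 2231.3 for Il34LacZ/LacZ, a difference of 0.89 or 1.86-fold. Genes of its level had a median of -0.54 and a 90th percentile of 0.06, and 99.0% lay below it. Relative to them Ifitm3 stood 1.43 higher. Ifitm6, its neighbour on the chromosome and a gene of myeloid cells, read 22.5 and 20.3, under the floor on both arrays.

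The other measured genes of the family stood at or above their level, by differing amounts. Ifitm1 read 730.0 and 788.4, a difference of 0.11 but 0.75 above its level, and a further probe set of this gene read 475.0 and 765.3, a difference of 0.67. Ifitm2 read 1410.4 and 1037.7, a difference of -0.44 and 0.15 above its level, and its other 2 probe sets differed by -0.83 and -0.48. All 3 Ifitm2 probe sets thus read lower in the sample where Ifitm3 read higher. Ifitm5, best known in bone, read 110.5 and 251.8, 2.12-fold higher. Ifitm7 read 31.5 and 66.3 and Ifitm10 read 55.0 and 100.7, so both were close to the floor. The 5 had a median of 0.72, with 3 higher by 1.5-fold or more and 0 lower. All genes at the floor had a median of -0.16, with 15.9% higher and 29.8% lower. Relative to their level 2 of the 5 were higher and 0 lower, where 14.1% and 18.0% of all genes were. The family's median was 0.11 under a higher floor, the 75th percentile of all probe sets. Genes of this family are close copies, and how far their probe sets read each other's transcripts was not tested.

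Msrb1, a selenoprotein that repairs oxidised methionine in proteins such as actin, was the member furthest below its level. Its intensity was 571.4 for Il34+/LacZ and 124.3 for Il34LacZ/LacZ, a difference of -2.07 or 4.19-fold lower. Genes of its level had a median of -0.61 and a 10th percentile of -1.31, and 0.8% of them lay below Msrb1. It had rank 65 from the lowest of the 12843 genes. Relative to genes of its level it stood -1.46 apart, more than 2 probe set SDs.

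Other enzymes of the same repair reaction stood nearer to their level. Of 10 genes for methionine sulfoxide reductases, thioredoxins and selenoproteins, all at the floor, 3 were lower by 1.5-fold or more and 0 higher. Among all genes at the floor 29.8% were that much lower and 15.9% higher. Relative to genes of their level none passed 1.5-fold either way (0 lower, 0 higher), and the median was 0.13. Msrb2, the mitochondrial form, read 74.8 and 100.6, Msrb3 56.9 and 68.2, and Msra, which repairs the other stereoisomer, 34.4 and 53.5. Txn1, the thioredoxin that recharges these enzymes, read 2047.0 and 1839.7, 0.35 above its level. Among genes of selenium use, Selenow read 1396.6 and 902.2 and Sephs2, which makes the selenium donor, 132.3 and 79.3. Relative to their level they differed by -0.05 and -0.47, within the probe set SD.

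Mgst1, a membrane-bound glutathione transferase, read 8.2 and 16.2, under the floor on both arrays, so its difference is not interpreted. Of 10 genes of its family and of glutathione use, 6 were lower by 1.5-fold or more and 0 higher, and the median was -0.66. Among all genes at the floor 29.8% were that much lower and 15.9% higher, with a median of -0.16. Relative to genes of their level 2 of the 10 were lower (median -0.22), where 18.0% of all genes were. Those 2 were Gclm, a subunit of the enzyme that limits glutathione synthesis, which read 161.5 and 38.7 (at least 2.74-fold lower, taken against the floor), and Mgst2, which read 60.1 and 29.1. Ltc4s, the leukotriene C4 synthase, read 1123.2 and 535.7, 2.06-fold lower but -0.41 relative to its level.

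Plac8, a small cysteine-rich protein gene that is abundant in inflammatory monocytes, read lower in Il34LacZ/LacZ. It read 173.2 and 91.1, a difference of -0.82 or 1.77-fold lower. Genes of its level had a median of -0.31 and a 10th percentile of -1.12, so Plac8 lay inside their range, with 22.4% of them below it. Relative to that median it differed by -0.51, less than the probe set SD, and there it was no longer 1.5-fold apart.

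**Figure D3:**
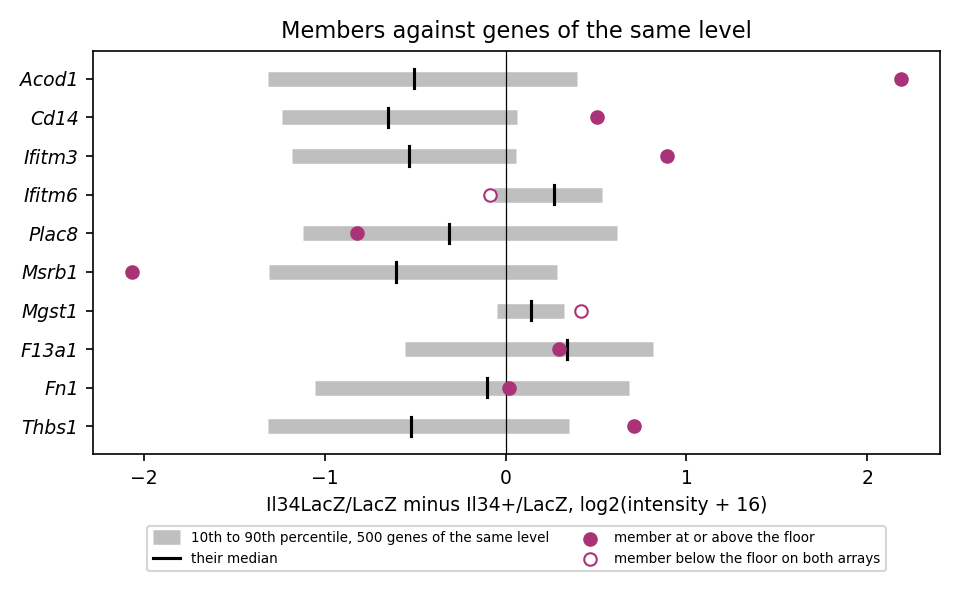
Difference between the arrays (log2, x axis) for each member (points; open where both arrays were under the floor), with the 10th to 90th percentile of the 500 genes of its level as a grey band and their median as a bar. Acod1, Cd14, Ifitm3 and Thbs1 lie right of their bands, Msrb1 lies left of its band, and Plac8, F13a1 and Fn1 lie inside theirs.

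Of the 3 clot and matrix genes, Thbs1 read higher in Il34LacZ/LacZ and the others lay near their level. Thbs1, which encodes the secreted glycoprotein thrombospondin 1, read 155.1 and 263.9, a difference of 0.71 or 1.64-fold. Genes of its level had a median of -0.52 and a 90th percentile of 0.35, and 95.8% lay below Thbs1, which stood 1.23 above that median. F13a1, the catalytic chain of clotting factor XIII, read 52.4 and 68.1, close to the floor. Its difference of 0.30 had 45.4% of genes of its level below it. Fn1, which encodes fibronectin, read 95.1 and 96.8, a difference of 0.02 with 57.2% below it.

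Receptors and partners of these proteins read lower or near their level. Of 15 listed, 14 had a probe set and 11 reached the floor, of which 7 were lower by 1.5-fold or more and 0 higher (median -0.74). Among all genes at the floor 29.8% were lower and 15.9% higher, or 18.0% and 14.1% relative to their level. Relative to genes of their level 1 of the listed genes was lower and 0 higher (median -0.14). That 1 was Itga4, the alpha 4 integrin that binds fibronectin, which read 154.6 and 54.4, 2.42-fold lower and -1.14 from its level. Cd47, a receptor of thrombospondin 1, read 1504.8 and 894.5 (-0.15 from its level), while Cd36, another, read 48.1 and 48.4, under the floor. Itga5 and Itgb1, the subunits of the main fibronectin receptor, read 270.1 and 149.7 and 670.7 and 544.4, with differences from their level of -0.27 and 0.35. Among the other thrombospondins Thbs3 read 76.0 and 79.6, Thbs2 was under the floor on both arrays, and Thbs4 (31.8 and 60.7) and Comp (46.8 and 98.1) were under it in Il34+/LacZ.

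The sort carried the markers of its label on both arrays. Cd207, which encodes Langerin, read 3153.0 and 1852.0 and Epcam 632.9 and 707.7. All 10 Langerhans cell genes of the marker list were above the floor. Their summed intensity was 33809.7 in Il34+/LacZ and 27392.0 in Il34LacZ/LacZ, with a median difference of -0.71, or -0.19 relative to genes of their level.

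Other genes of monocytes lay on both sides of their level. Of 18 listed genes of classical monocytes, 15 had a probe set and 13 reached the floor. Of the 13, 4 were higher by 1.5-fold or more and 3 lower, where 15.9% and 29.8% of all genes at the floor were. Against their own level 2 were higher and 0 lower, where 14.1% and 18.0% of all genes were. The median was -0.38, or 0.13 relative to their level. The summed intensity of the 15 was 3704.9 and 2945.3. Ccr2, the chemokine receptor that defines these monocytes, read 110.8 and 75.4, and Vcan and Chil3 were under the floor on both arrays. Ccl9, a chemokine, and Clec4e, a lectin receptor, stood apart at 110.3 and 301.4 and at 81.7 and 218.7, or 1.84 and 1.68 above their level. Lyz2 and Itgam, which macrophages share, read 1.65-fold and 1.78-fold lower, but -0.08 and -0.16 from their level. Of 8 genes of non-classical monocytes at the floor, 0 were higher by 1.5-fold or more and 2 lower (median 0.07). Against their own level, Cebpb and Itgal, 2 of the 8, were higher and 0 lower (median 0.25). Cx3cr1 among them read 207.7 and 192.3.

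Markers of further cell types also differed between the arrays, and their part in the differences above was not tested. Of 10 macrophage genes at the floor, 3 were higher by 1.5-fold or more and 1 lower, or 6 and 0 relative to their level. Among all genes at the floor 15.9% were higher and 29.8% lower, or 14.1% and 18.0% relative to their level. The summed intensity of the 13 measured macrophage genes was 3871.7 and 5335.1. Pf4, which is counted in both the macrophage and the platelet list, made up most of the difference in this sum, at 148.1 and 975.3. Ms4a7 read 64.8 and 270.0, C1qa 256.2 and 598.8 and Cd68 1443.9 and 1519.9, while Mrc1 read 66.6 and 68.7 and Cd163 23.0 and 35.9. Adgre1, the 1 macrophage gene counted as lower, read 281.0 and 144.6, or -0.37 relative to its level. Of 10 neutrophil genes 6 reached the floor, with 4 higher and 1 lower and sums over all 10 of 733.2 and 1723.5. S100a8 and S100a9, which monocytes also make, made most of the difference in that sum, at 71.9 and 552.1 and at 103.2 and 698.6. Camp, at 27.4 and 82.6, and Ngp, at 16.5 and 53.5, were also counted as higher, each under the floor in Il34+/LacZ. Mmp9, the 1 counted as lower, read 380.2 and 190.9, and the defining neutrophil gene Ly6g read 8.5 and 11.5. Of 7 measured platelet genes, 2 of the 6 at the floor were higher and 0 lower. Apart from Pf4 they were near the floor, with Ppbp at 35.9 and 57.8 and Itga2b at 35.7 and 70.2. The sum of the 7 was 404.3 and 1302.8, and Pf4 made up most of it in Il34LacZ/LacZ.

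Most keratinocyte genes ran the other way. Of 9 at the floor, 7 were lower by 1.5-fold or more and 0 higher, where 29.8% of all genes were lower and 15.9% higher. The median of the keratinocyte genes was -2.51, and the sum over all 10 was 3902.0 and 751.5. Krt14 read 787.4 and 58.6 and Krt5 1187.5 and 138.0. The 2 not counted as lower were Trp63, at 154.6 and 103.1, and Lgals7, at 128.2 and 129.4. Relative to their level they differed by -0.20 and 0.36. Most fibroblast and endothelial genes were close to the floor or under it. The sum over 8 fibroblast genes was 301.6 and 436.1, where Col1a2 read 55.2 and 107.4. Over 6 endothelial genes it was 281.8 and 422.6. Of the 4 endothelial genes at the floor 3 were higher by 1.5-fold or more, with Cdh5 at 40.4 and 98.3, and 0 lower. The brightest, Vwf, read 136.7 and 109.7, which was -0.06 relative to its level. Thbs1 and Fn1 are also made by fibroblasts and endothelial cells. In bulk RNA of a sort, more cells of a type and more RNA per cell cannot be told apart.

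**Figure D4:**
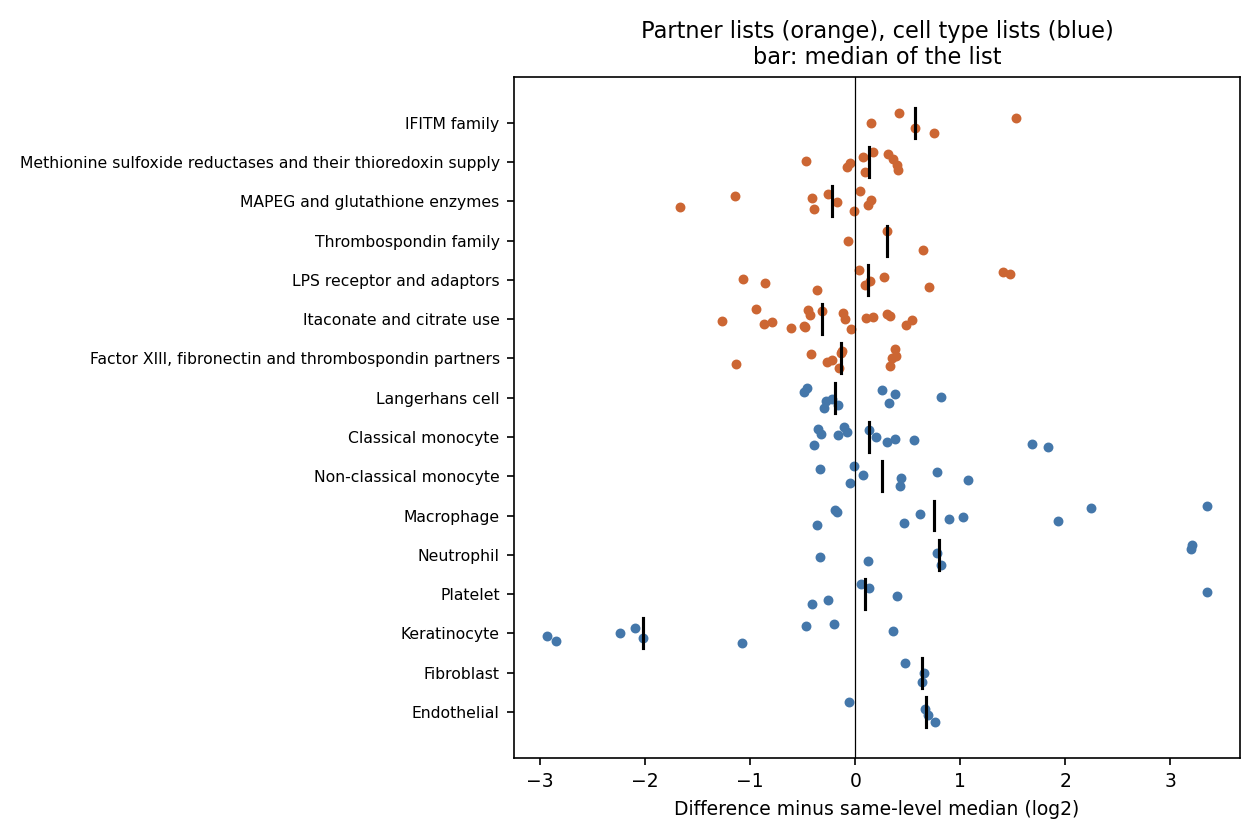
Difference of each listed gene at the floor minus the median of genes of its level (log2, x axis), by list; orange points are partner lists of the members, blue points are cell type lists, and bars are list medians. Keratinocyte genes have a median of -2.02, the itaconate and citrate list -0.32, and macrophage and neutrophil genes 0.75 and 0.80.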

How the data were processed

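The values deposited by the authors are processed intensities, linear in scale, of 34760 probe sets of a mouse gene array, with 1 array per genotype. How probes were summarised, corrected and scaled is not given in the sources used here, and the number of arrays limits the precision. Only the 21640 probe sets to which the platform annotation gives 1 symbol were used, and a gene was represented by the one with the highest mean log2(intensity + 16). All 10 members were in the RefSeq gene table of GRCm38.p6.

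Folds on the log2(intensity + 16) scale understate changes of dim genes. Genes under the floor on both arrays were left out of counts. A fold is a lower bound against the floor where the text says at least for a gene with 1 array under it. The members and lists were chosen with earlier results of these data known. All members are named whatever their values. Any gene of the partner lists could be named, and of the cell type lists some of the brightest, of those furthest from their level and of the defining markers are. The comparison with genes of the same level was run on simulated data. The planted changes were larger than those of most members and the spread was narrower than on these arrays. That run therefore does not show how well the comparison does here. Promoters came from RefSeq, and the 32851 outside chr18 were searched for motifs. The alternatives changed the pseudocount, scaling, trend, probe set rule and floor. Python 3.11.15, numpy 2.4.6, pandas 2.3.3, statsmodels 0.14.6 and matplotlib 3.10.9 were used.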

Additional observations from a re-analysis of the deposited data

How the results depend on the processing

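Over 10 alternative settings (pseudocounts of 1 and 64, centring on the median or 75th percentile, quantile normalization, the trend with level removed in 2 ways, the mean of a gene's probe sets, a floor at the 75th percentile and no floor), Acod1 ranged from 1.80 to 2.71, Ifitm3 from 0.74 to 1.43, Thbs1 from 0.56 to 1.23, Cd14 from 0.36 to 1.16, Msrb1 from -2.22 to -1.46 and Plac8 from -0.97 to -0.51. F13a1 (-0.04 to 0.56) and Fn1 (-0.13 to 0.28) changed sign in 1 of 9 settings each and gave no value with the raised floor, nor did the fibroblast and thrombospondin lists. Each member has 1 probe set, and a floor only drops genes. The mean of probe sets and the 2 floor settings therefore could not move a member's value. As deposited 3 members were at least 1.5-fold higher and 2 lower. Only 1 was lower with centring on the 75th percentile, relative to genes of the same level and with the loess trend removed, and 4 were higher in these 3 settings and with quantile normalization; 2 were higher with a pseudocount of 64 and with centring on the median. The median over all genes moved from -0.16 to -0.30 with centring on the median and to 0.11 on the 75th percentile. With the raised floor it was -0.54, where the itaconate and citrate list had -0.94. The median of the members ran from 0.25 to 0.66. The raised floor left fewer genes and gave a neutrophil median of 2.58. Of the platelet list it left Pf4 alone, at 2.60. Of the endothelial list it left Vwf alone, at -0.28, against a list median of 0.91 as reported. It took the IFITM family median from 0.72 to 0.11. With no floor the neutrophil median was 0.31 and the keratinocyte median -1.71. The medians for classical monocytes (-0.53 to 0.13), non-classical monocytes (-0.20 to 0.34), the lipopolysaccharide receptor list (-0.33 to 0.16) and the methionine sulfoxide reductase list (-0.44 to 0.25) changed sign between settings, and the itaconate and citrate list stayed between -1.09 and -0.32. No paired analysis was possible because each genotype has 1 array.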
